A study of Saccharomyces cerevisiae SK1 with 28 samples.

Results

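The 10 genes described here, CCW12, CIS3, CRH1, CWP1, ECM33, GAS1, GAS5, PIR1, SED1 and ZEO1, encode proteins of the yeast cell wall, enzymes that remodel it and a membrane protein that acts in its surveillance. They were picked by gene symbol out of 551 named genes with a listed ChIP-seq summit, and all 10 were found. They were picked from these same tables, so the fact that they were listed is a description of the choice and is given with no test. The tables come from ChIP-seq of Saccharomyces cerevisiae SK1 (WT), a strain used for its efficient sporulation, with 2 ChIP libraries in each of 7 states. The states are vegetative cells in exponential growth in YPD (rich medium), vegetative cells with DTT, 6 h and 21 h in BYTA, a presporulation medium, and sporulation medium, sampled at 5.5 h, 6 h 45 min and 8 h. DTT is a reducing agent that disturbs protein folding in the endoplasmic reticulum (ER). All states share the strain and the wild-type genotype, and cells were grown at 30 °C and fixed in 1% formaldehyde for 15 min. The precipitated protein, the dose and duration of DTT, and whether replicates were separate cultures are not given in the sources used.

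The yeast wall is a mesh of glucan with a little chitin, covered by mannoproteins. Wall proteins enter the ER, fold there, receive mannose and often a glycosylphosphatidylinositol (GPI) anchor, and are exported, which makes them a large part of the cargo of the secretory pathway. GPI-anchored wall proteins and PIR proteins are joined covalently to the glucan, the glucan chains are lengthened by Gas enzymes and tied to chitin by Crh enzymes, and damage to the wall is sensed at the plasma membrane and passed on through the cell wall integrity pathway. The unfolded protein response (UPR), named in the title of the study, is the pathway by which cells adjust ER folding capacity.

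A table row pairs 1 peak summit with 1 promoter window of 600 bp that ends at the gene start. Tables listed 296 and 245 summits with DTT (replicates 1 and 2), 277 and 91 at 6 h in BYTA, and between 4 and 23 in the other 10 libraries. Scores are the authors' deposited values, of unstated type, and were used to rank summits within 1 table, rank 1 being the highest score. The selection of the listed summits is not stated, so absence from a table is no evidence of absent binding. Read depth is unknown from these tables. A gene is called in a state when both libraries list a summit in its window.

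All 10 genes were called with DTT, where 4.68% of 6021 protein-coding genes were called. That count is fixed by the choice of the genes, and nothing is read from it. CCW12, CWP1, SED1 and ZEO1 were also called at 6 h in BYTA, 4 of 10 against 1.74% of protein-coding genes. Replicate 1 at 6 h listed 7 of the 10, with CIS3, GAS5 and PIR1 added, against 5.65% of protein-coding genes, and replicate 2 listed 4, against 1.84%. These counts at 6 h also rest on genes picked from these tables, all of them called with DTT, and nothing is read from them. Of the 282 genes called with DTT, 176 were listed in at least 1 library at 6 h, beside 7 of the 10. CRH1, ECM33 and GAS1 were listed in the 2 DTT libraries alone. None of the 10 was listed in the other 10 libraries, in which 0.249% (vegetative), 0.448% (21 h in BYTA), 0.116% (sporulation medium, 5.5 h), 0.216% (6 h 45 min) and 0.282% (8 h) of protein-coding genes were called. With backgrounds that low, 0 of 10 is near the background and is not a result about these genes.

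**Figure D1:**
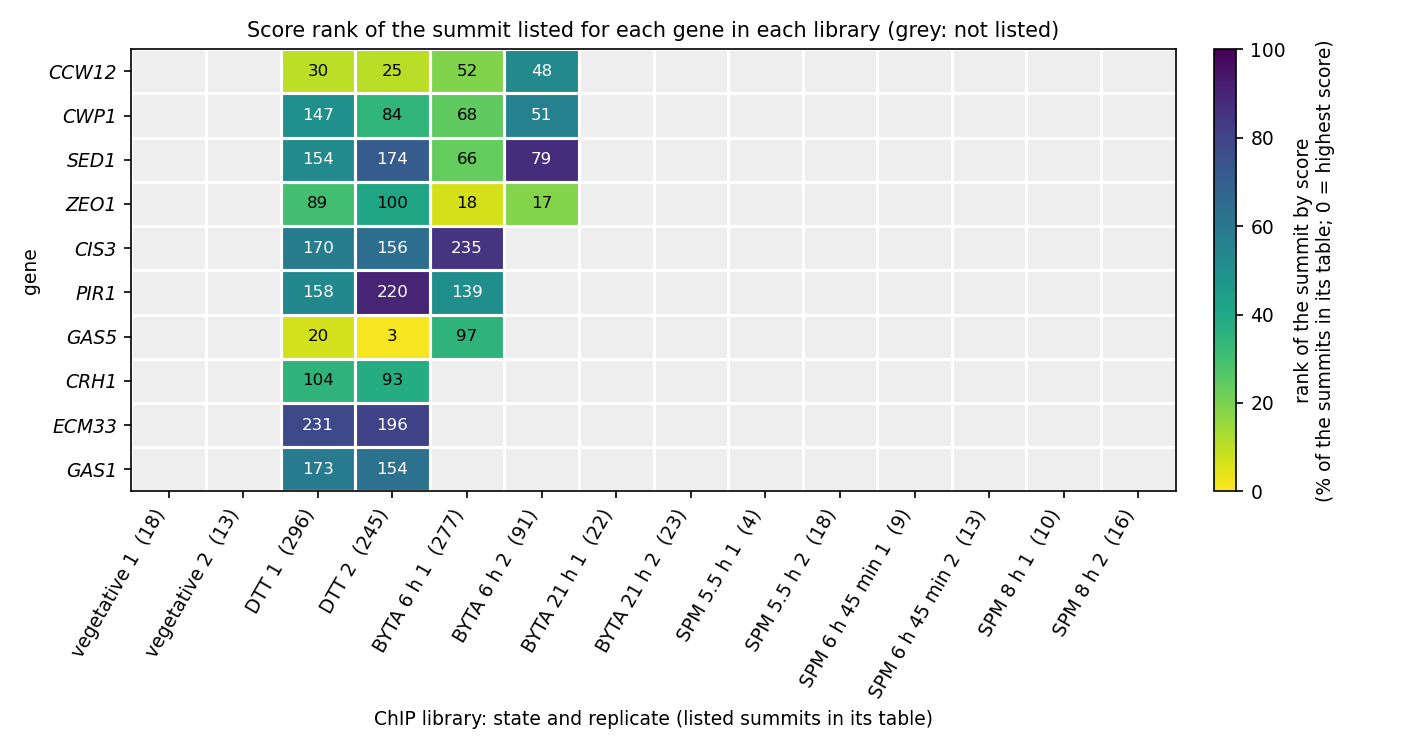
Each cell is 1 gene in 1 ChIP library, with the number of listed summits of the library in brackets (SPM, sporulation medium). Colour gives the rank by score as a percent of the summits in that table, the number in the cell is the rank itself, and grey cells were not listed. Entries lie in the 2 DTT and 2 BYTA 6 h columns, and with DTT they run, as a percent of the table, from rank 3 of 245 (GAS5) to rank 220 of 245 (PIR1).

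GPI-anchored wall proteins come first. CCW12 encodes an abundant small mannoprotein that keeps newly made wall stable, and its window spans positions 364999 to 365598 of chromosome XII (SK1_12G01650, coordinates as deposited for SK1). Its summits scored 2118 (rank 30 of 296) and 1567 (25 of 245) with DTT, and 1481 (52 of 277) and 559 (48 of 91) at 6 h in BYTA. They lay 514 and 509 bp upstream of the gene start with DTT, and 524 and 556 bp upstream at 6 h. With DTT it stood at 10.1% and 10.2% of the way down the tables, the highest place of the 5 called genes in the list of GPI-anchored wall proteins. The Gas and Crh enzymes, which carry GPI anchors too, are counted with the remodelling enzymes. The summits at 6 h lay farther from the gene than both DTT summits, and the 2 BYTA summits were 32 bp apart against 5 bp for the DTT summits.

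CWP1, which encodes another covalently linked wall mannoprotein, has its window at positions 265083 to 265682 of chromosome XI (SK1_11G01150). The DTT summits scored 776 (rank 147 of 296) and 1007 (84 of 245), and those at 6 h scored 1373 (68 of 277) and 541 (51 of 91). They lay 466 and 468 bp upstream with DTT and 442 and 419 bp upstream at 6 h. The DTT summits were 2 bp apart, the closest replicate pair of the 10 genes, and both summits at 6 h were nearer to the gene. CWP2, the paralogous wall protein gene that precedes CWP1 in the same orientation, was listed in 0 libraries.

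SED1 encodes a major structural wall protein of stressed and stationary cells, with a window at positions 597826 to 598425 of chromosome IV (SK1_04G02940). Its scores were 733 (rank 154 of 296) and 517 (174 of 245) with DTT, and 1384 (66 of 277) and 379 (79 of 91) at 6 h in BYTA. The summits lay 515 and 589 bp upstream with DTT and 523 and 520 bp upstream at 6 h. The summit of DTT replicate 2 stood apart from the other 3, which lay within 8 bp of each other. Its gap of 74 bp to replicate 1 was the widest between DTT replicates among the 10 genes, where the median over all 282 called genes was 5.5 bp.

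ECM33 encodes a GPI-anchored protein needed for an intact wall, and its window covers positions 400533 to 401132 of chromosome II (SK1_02G01770). It was listed with DTT at 457 (rank 231 of 296) and 458 (196 of 245), the lowest score of the 10 genes in replicate 1 and the lowest but PIR1 in replicate 2. The summits lay 498 and 508 bp upstream of ECM33. They also lay 334 and 324 bp from the start of the divergent gene SLM4, whose product belongs to a nutrient-signalling complex on the vacuole, and SLM4 was therefore the nearer gene in both libraries.

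Of the PIR proteins, which are O-mannosylated and linked directly to glucan, CIS3 and PIR1 were listed. CIS3 (window 132851 to 133450 of chromosome X, SK1_10G00580) scored 684 (rank 170 of 296) and 611 (156 of 245) with DTT and 447 (235 of 277) in replicate 1 at 6 h. Its summits lay 272 and 283 bp upstream with DTT and 308 bp upstream at 6 h. It was the only one of the 10 genes with summits less than 300 bp upstream, the middle of the window, and there in the 2 DTT libraries. PIR1 (window 149570 to 150169 of chromosome XI, SK1_11G00550) scored 719 (rank 158 of 296) and 409 (220 of 245) with DTT and 802 (139 of 277) in replicate 1 at 6 h, at 468, 486 and 496 bp upstream. The DTT replicates placed PIR1 differently, at 53.4% and 89.8% of the way down their tables. Its divergent neighbour PIR3, another PIR gene, was listed in 0 libraries.

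Among the remodelling enzymes, GAS5 encodes a glucanosyltransferase that lengthens glucan chains, with a window at positions 248230 to 248829 of chromosome XV (SK1_15G01200). Its summits scored 2213 (rank 20 of 296) and 1700 (3 of 245) with DTT and 1061 (97 of 277) in replicate 1 at 6 h. The DTT summits held the highest score of the 10 genes in both libraries. The summits lay 571, 563 and 574 bp upstream of GAS5 in these 3 libraries, close to the far edge of its window. All 3 were shared with the divergent gene SIL1, whose start was 87, 95 and 84 bp away. SIL1 encodes a nucleotide exchange factor of the ER chaperone Kar2, and in this pair the ER gene was the nearer by far.

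GAS1 encodes the main glucanosyltransferase of growing cells, with a window at positions 858663 to 859262 of chromosome XIII (SK1_13G04150). It scored 631 (rank 173 of 296) and 619 (154 of 245) with DTT, at 304 and 308 bp upstream, next to the middle of the window. CRH1 encodes a transglycosylase that joins chitin to glucan, and its window covers positions 863736 to 864335 of chromosome VII (SK1_07G04000). It scored 1080 (rank 104 of 296) and 965 (93 of 245) with DTT, at 432 and 416 bp upstream. Neither enzyme gene shared its summit with another window, and neither was listed at 6 h in BYTA. GAS1 follows FKS3 and SCW10 in the R64 gene order. These are genes of a glucan synthase homologue and of a wall protein resembling glucanases, and the divergent pair shared a summit of its own in both DTT libraries (scores 923 and 872).

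ZEO1 encodes a peripheral plasma membrane protein that binds the wall stress sensor Mid2 and acts in the cell wall integrity pathway. Its window covers positions 95501 to 96100 of chromosome XV (SK1_15G00460). The scores were 1199 (rank 89 of 296) and 936 (100 of 245) with DTT, and 2092 (18 of 277) and 1228 (17 of 91) at 6 h in BYTA. The summits lay 529 and 516 bp upstream with DTT and 512 and 508 bp upstream at 6 h. ZEO1 had the highest score of the 10 genes in both libraries at 6 h and took places 3 and 4 in the DTT libraries among the 7 genes listed in both states.

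**Figure D2:**
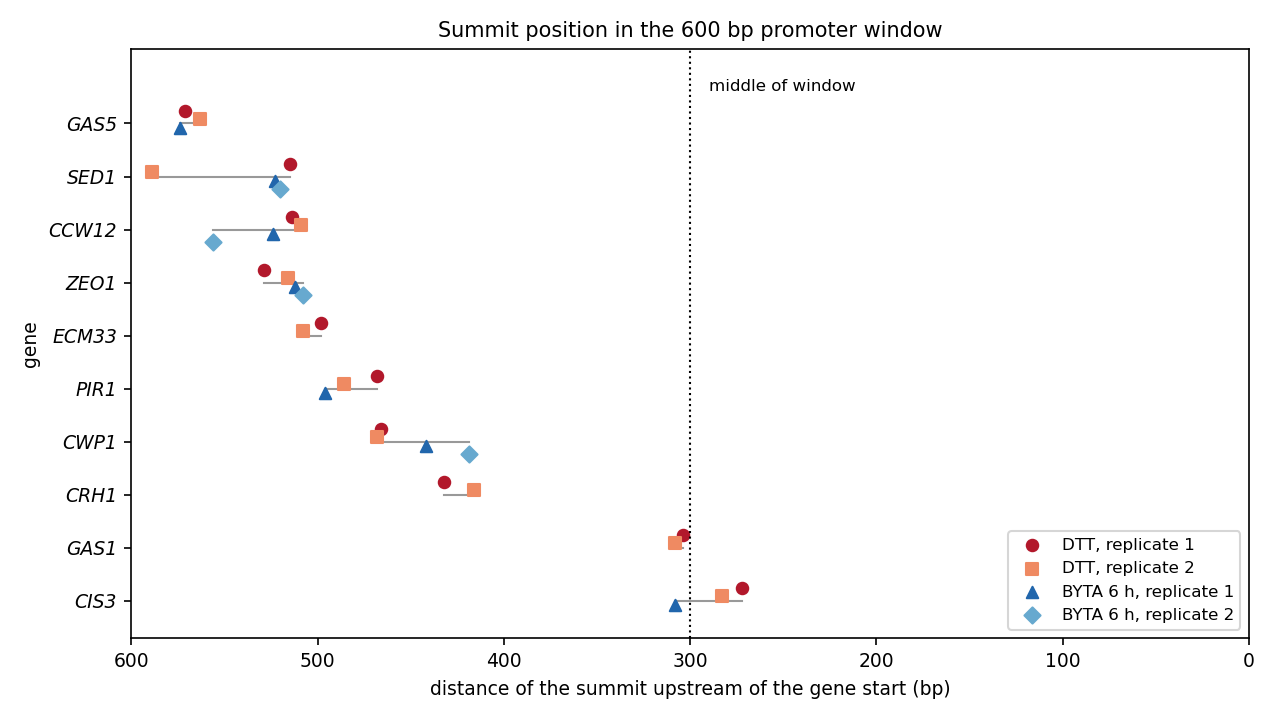
Horizontal position gives the distance of each listed summit upstream of the gene start in bp, with the gene start at the right edge and the window edge at the left. Symbols are the 4 libraries and a grey line joins the lowest and the highest distance of a gene. GAS5 lies farthest from its gene, at 563 to 574 bp apart from the 589 bp of SED1 in DTT replicate 2, and CIS3 and GAS1 lie near the middle of the window.

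The summits of these genes lay toward the far end of the window. In the DTT libraries their median distance was 483 and 497 bp upstream (10 genes each), where the median over all listed genes was 340 bp (360 genes) and 354.5 bp (300 genes). At 6 h in BYTA it was 512 bp (7 genes) against 359.5 bp over 340 genes in replicate 1, and 514 bp (4 genes) against 428 bp over 111 genes in replicate 2. With DTT 9 of the 10 lay more than 300 bp upstream in each library, beside 215 of 360 and 189 of 300 genes. These are descriptions of chosen genes and were not tested. Counting each summit only for the nearest gene, which removes ECM33 and GAS5, left medians of 467 and 477 bp against 325 and 337 bp.

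**Figure D3:**
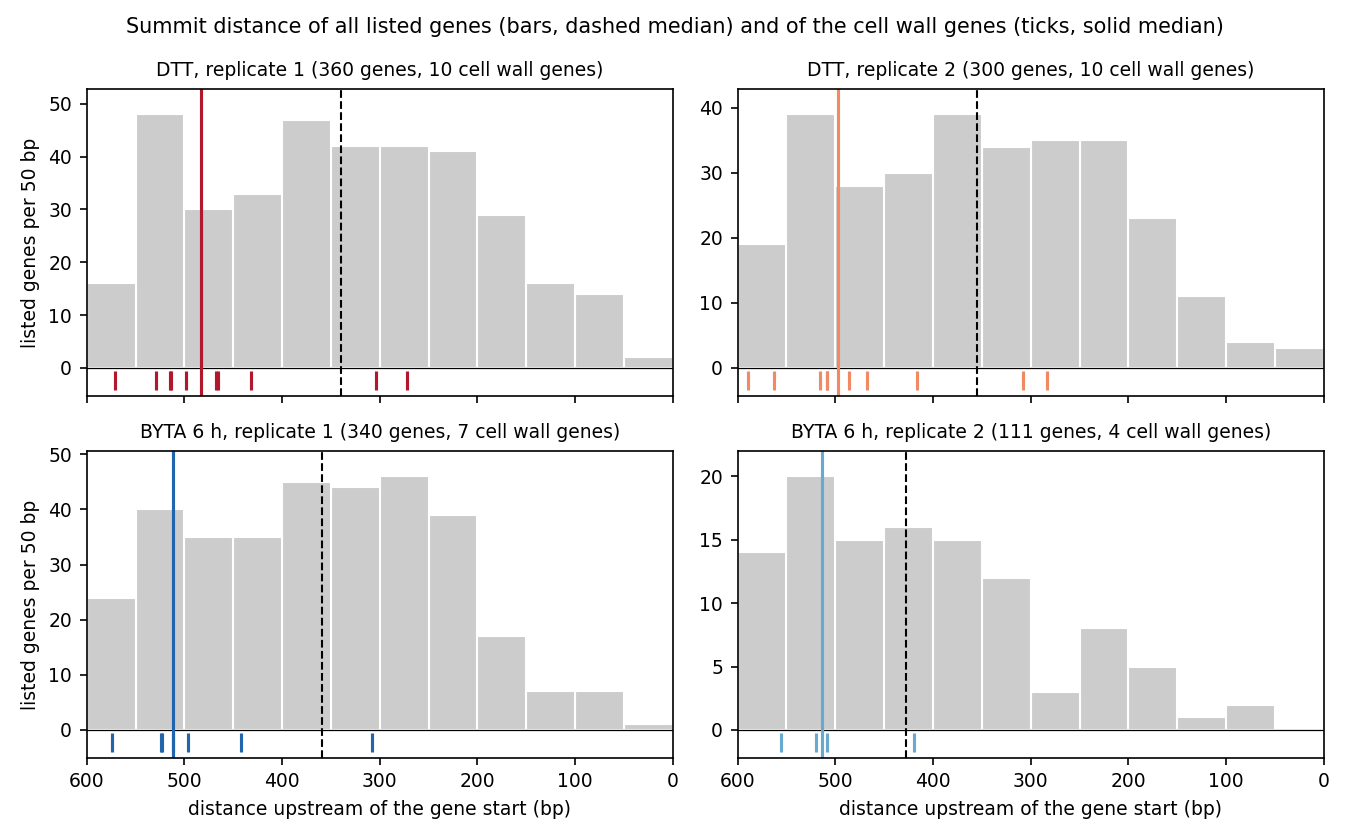
Grey bars count all listed genes of a library in bins of 50 bp of distance upstream of the gene start (gene start at the right), with the dashed line at their median. Coloured ticks under the axis are the cell wall genes of that library and the solid line is their median, which lies farther upstream than the dashed line in all 4 panels, for example 483 against 340 bp in DTT replicate 1.

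Summits of 1 gene in different libraries were close together. Between the DTT replicates the gap was 2 to 74 bp with a median of 10.5 bp over the 10 genes, beside 5.5 bp over 282 genes. All 7 genes listed in both states had mean summits within 50 bp between DTT and 6 h in BYTA. Relative to the gene start, the mean summit at 6 h was farther upstream for CCW12, CIS3, PIR1 and GAS5, by 28.5, 30.5, 19 and 7 bp. It was nearer for CWP1, SED1 and ZEO1 (differences of -36.5, -30.5 and -12.5 bp). For 6 of the 7 genes the distances of the 2 states did not overlap, SED1 being the exception, beside 67.6% of the 176 genes listed in both DTT libraries and in at least 1 at 6 h. The displacement had no common direction, and with 2 libraries against 2, or against 1 for CIS3, GAS5 and PIR1, no permutation test could pass the threshold. Distances of 2 libraries and 1 library fail to overlap more easily than those of 2 and 2.

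The order of the 7 genes by score differed more between states than between DTT replicates. In both DTT libraries GAS5 took place 1 and CCW12 place 2. In replicate 1 at 6 h in BYTA ZEO1 took place 1, CCW12 again place 2 and GAS5 place 5, and SED1, at places 5 and 6 with DTT, took place 3. Of the 21 pairs of these genes, 3 had opposite orders in the DTT replicates, 6 in DTT replicate 1 against 6 h replicate 1, and 9 in DTT replicate 2 against it. GAS5 took part in 4 of those 6 and 4 of those 9 pairs, and its summits lay nearer to SIL1 in each of these libraries. Over all 175 genes listed in the same 3 libraries, 1599 of 15191 pairs (10.5%) had opposite orders in the DTT replicates. Between DTT and 6 h, 5475 of these pairs did with DTT replicate 1 and 5300 (34.9%) with replicate 2. The shares of the 7 genes were 14.3%, 28.6% and 42.9%, and the order of the genes at large thus also differed more between DTT and 6 h than between the DTT replicates. In replicate 2 at 6 h, the 4 listed genes stood in the order ZEO1, CCW12, CWP1 and SED1, which differs from replicate 1 by the exchange of the neighbours CWP1 and SED1.

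**Figure D4:**
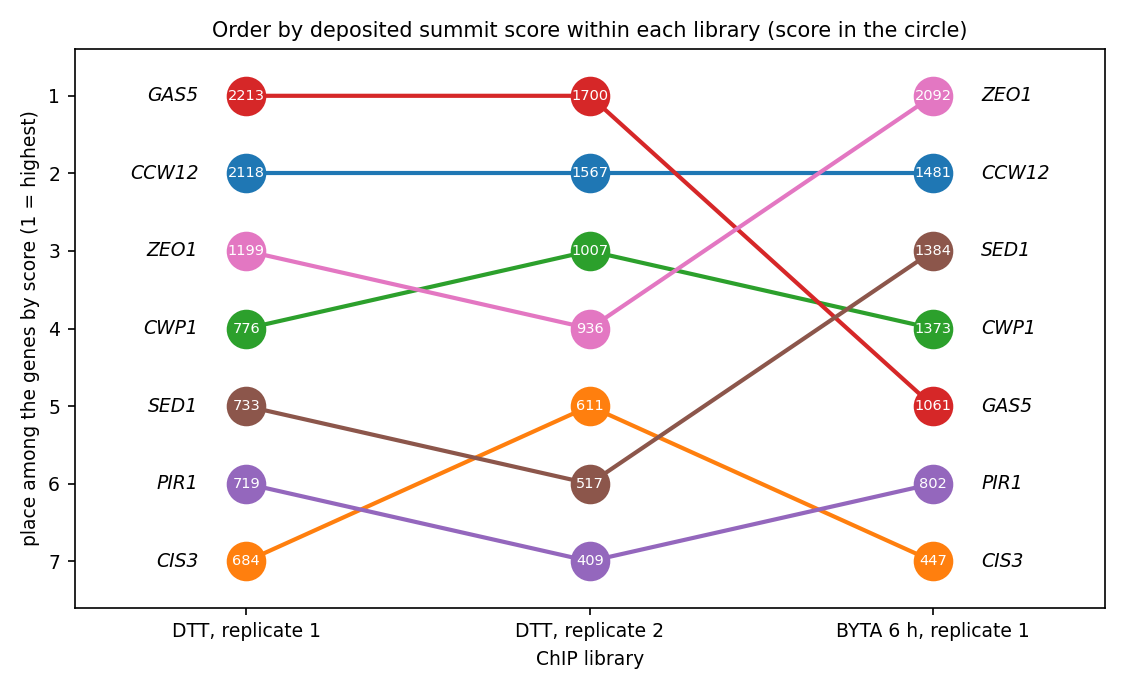
The 7 genes listed in both DTT libraries and in replicate 1 at 6 h in BYTA are placed by their deposited score within each library, from place 1 (highest), with the score in the circle. Scores are not compared between libraries. GAS5 goes from place 1 in both DTT libraries to place 5, and ZEO1 from places 3 and 4 to place 1. The summits of GAS5 lay nearer to the start of SIL1.

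At 6 h replicate 2 listed fewer summits than replicate 1, and a gene is called only when both libraries list it. The 4 genes found again in replicate 2 ranked 18, 52, 66 and 68 of 277 in replicate 1, while GAS5, PIR1 and CIS3, not listed in replicate 2, ranked 97, 139 and 235. Over all genes of replicate 1 with a rank of up to 68, 78 of 87 were listed in replicate 2, and of those beyond it 27 of 253 were. The limit of 68 is the rank of the last of the 4 genes, so the split of the 7 genes at it is fixed by its choice, and the counts over all genes are given as a background. The absence of the 3 genes from replicate 2 and its shorter list cannot be told apart. Of the genes called with DTT, the 106 listed in neither library at 6 h had a median rank at 53.4% and 61.2% of the DTT tables, and the 176 others at 29.1% and 35.9%. CRH1, ECM33 and GAS1 ranked 104, 231 and 173 of 296 in DTT replicate 1, with a median at 58.4% there and at 62.9% in replicate 2. The 7 genes listed at 6 h had medians at 49.7% and 40.8%, lower in the tables than the 176 genes that include them. CRH1 ranked above CWP1, SED1, PIR1 and CIS3 in DTT replicate 1, so the DTT ranks of the 3 genes and the 7 overlapped. Why the 3 genes were not listed at 6 h was not tested.

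The 10 genes had 3 patterns over the 14 libraries, each shared with many other genes. CRH1, ECM33 and GAS1 had the pattern of 102 of the 551 listed genes, CIS3, GAS5 and PIR1 that of 93, and CCW12, CWP1, SED1 and ZEO1 that of 65. Within a pattern, likeness was the mean absolute difference in percent rank over the shared libraries, all of the named genes having a Jaccard index of 1 over the 14 libraries. Nearest to CCW12 were MCD4 and SNA2, differing by 5.57 and 5.66 percentage points over 4 libraries. MCD4 encodes an enzyme of GPI anchor synthesis. Nearest to CWP1 were PDR15 and PDR16 (7.51 and 8.46 points), to SED1 RSM7 and HOR7 (3.67 and 9.19) and to ZEO1 PCK1 and TPO1 (7.92 and 8.03). Over 3 libraries, GAS5 was nearest to SEC61 and GNP1 (9.88 and 10.01 points), where SEC61 encodes the main subunit of the ER translocon. The 9.88 points of SEC61 was the widest difference to a nearest gene among the 10 genes. Functions are given for MCD4 and SEC61 alone, and no shared function is read from the likeness. CIS3 was nearest to YGR035C and MUP1 (5.11 and 6.47 points) and PIR1 to YJL107C and GID8 (2.30 and 10.27). Over the 2 DTT libraries, CRH1 was nearest to ZRT2 and HNT1 (3.53 and 3.91 points), ECM33 to NMA1 and LAG2 (1.29 and 4.71) and GAS1 to KCH1 and YOR342C (1.87 and 3.08).

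The wider set of wall genes was counted in 7 lists with 97 genes, the 10 included. With DTT 20 of the 97 were called, and 10 of the 87 others (11.5%, beside 4.68% of all protein-coding genes). At 6 h in BYTA 6 of 97 were called, and 2 of the 87 others (2.3%, beside 1.74%). The lists were chosen with earlier results of these data known. With summits given to the nearest gene alone, the 20 list genes called with DTT were 15, and the 10 chosen genes among them were 8. That rule also cut all listed genes in the DTT libraries, from 360 and 300 to 291 and 241. The share of protein-coding genes called under it is not given, so the 15 have no background beside them. These lists were not tested, and the counts are descriptions.

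Of 22 remodelling enzymes 8 were called with DTT (36.4%, beside 4.68% of all protein-coding genes). These were the chosen genes CRH1, GAS1 and GAS5, whose call is fixed by the choice, with CRR1, EXG1, SCW10, SIM1 and UTH1. UTH1 and SIM1 encode SUN-family wall proteins and EXG1 the major exo-glucanase. UTH1 scored 1423 (rank 75 of 296) and 1207 (58 of 245) with DTT and was the remodelling list's called gene at 6 h, with scores of 1197 (82 of 277) and 490 (56 of 91). Its summits in these 4 libraries lay 496, 483, 492 and 499 bp upstream, so UTH1 also stood in the far part of its window. SIM1 scored 765 and 1070 with DTT, 255 and 249 bp upstream, nearer to the gene than the summits of all 10 genes. EXG1 scored 662 and 580 with DTT and 888 in replicate 1 at 6 h, at 548, 535 and 535 bp upstream. CRR1, a Crh relative of the spore wall, was called with DTT and shared its summits with the iron reductase gene FRE1.

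Of 17 GPI-anchored wall proteins 5 were called with DTT (29.4%, beside 4.68% of all protein-coding genes), CCW12, CWP1, ECM33, SED1 and TOS6. At 6 h in BYTA CCW12, CWP1 and SED1 were called (17.6%, beside 1.74%). All of these but TOS6 are among the 10 chosen genes, and nothing is read from these shares. TOS6 scored 963 (rank 120 of 296) and 1187 (61 of 245) with DTT, 383 and 385 bp upstream. Of 14 glucan synthesis genes, which include 0 chosen genes, FKS1, FKS3 and KEG1 were called with DTT (21.4%) and 0 at 6 h. FKS1 encodes the catalytic subunit of the main glucan synthase, and its summits scored 805 and 866 with DTT, 543 and 551 bp upstream, and 636 in replicate 1 at 6 h, 556 bp upstream. KEG1, whose product is an ER membrane protein needed for glucan synthesis, shared its summits with ERJ5, an ER J-domain gene whose start lay 36 and 38 bp away against 167 and 165 bp for KEG1.

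Of 11 chitin synthesis genes 1 was called with DTT (9.09%, beside 4.68% of all protein-coding genes). This was GFA1, which encodes the first enzyme toward the chitin precursor, with scores of 882 and 726, 215 and 207 bp upstream. Of 5 PIR genes CIS3 and PIR1, both chosen genes, were called with DTT, which is fixed by the choice. At 6 h 0 were called, although replicate 1 listed both. Of 18 genes of cell wall integrity signalling, the chosen gene ZEO1 was the called gene in both states (5.56%, beside 4.68% and 1.74%). None of the others, the kinase genes included, was listed in any library. With backgrounds this low, their absence is near the background and is not a result about these genes. Of 10 spore wall genes 0 were called with DTT, and the chitin deacetylase gene CDA2 was called at 6 h in BYTA (10%, 1 gene, beside 1.74%). Its summits scored 1440 (rank 56 of 277) and 697 (37 of 91) and lay 317 and 321 bp upstream. They were shared with YLR307C-A, whose start lay 511 and 507 bp away.

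**Figure D5:**
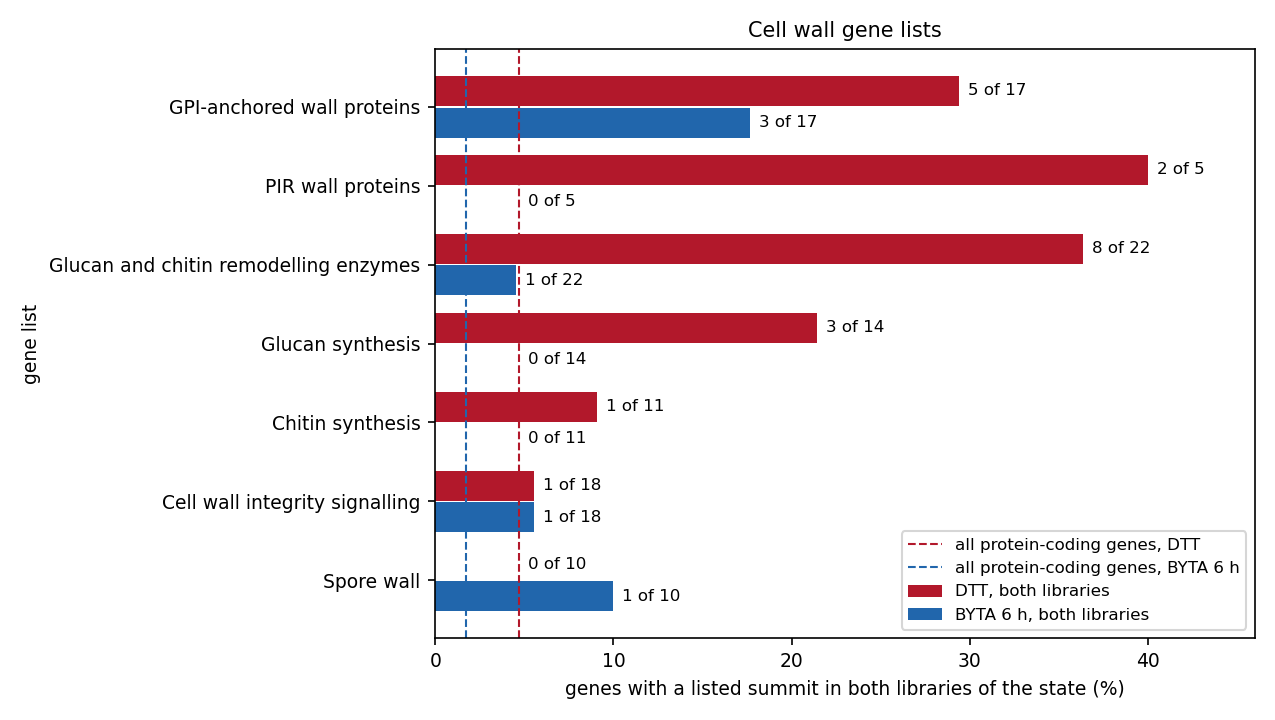
Bars give the percent of each list's genes with a listed summit in both libraries of a state, with the counts beside them. Dashed lines give the share of all 6021 protein-coding genes in that state (4.68% with DTT, 1.74% at 6 h in BYTA). Lists hold 5 to 22 genes, and the 10 chosen genes are included, so the bars of the lists that hold them rest on the choice. With DTT the called PIR genes (CIS3, PIR1) and the called integrity signalling gene (ZEO1) are all chosen genes. So are 4 of the 5 called GPI-anchored genes and 3 of the 8 called remodelling genes. At 6 h in BYTA all called genes of the GPI-anchored and integrity signalling lists are chosen genes.

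Some summits lay in the windows of 2 divergent genes. With DTT 2 of the 10 genes (ECM33 and GAS5) and 6 of the 20 called list genes shared their summits, beside 113 of all 282 called genes. At 6 h in BYTA 1 of the 6 called list genes did (CDA2, with YLR307C-A), beside 43 of all 105 called genes. In the pairs of GAS5 with SIL1 and KEG1 with ERJ5 the partner is a gene of the Kar2 chaperone system, while SLM4, the partner of ECM33, and FRE1, that of CRR1, are not. In these 4 pairs the partner's start was the nearer one. SCW10 and FKS3 are both wall genes, and SCW10 was the nearer. Which of the genes of a shared summit is regulated was not tested.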

How the data were processed

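Peak summits and scores were deposited by the authors, 1 table per ChIP library. The submitters' processing notes list ChIPseeker 1.44.0, MACS2 2.2.9.1, SAMtools 1.7 and Bowtie2 2.3.4.1, with no roles. The genome build, the control, and the type of the deposited score are not given in the sources used, and summit and window positions (other columns) are used as deposited. The library name within the peak names gave each table its library. The 14 input libraries were not analysed here.

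Here, distance was counted from the summit to the first base of the gene, just outside the window, and summits were ranked by score within a table (Python 3.11.15, pandas 2.3.3, numpy 2.4.6), checked on simulated tables. Systematic names were matched to RefSeq R64 symbols (all 551), and 10 identifiers without one were left out. R64 gave names and gene order alone. Gene and list choices were made with earlier results of these data known. Named are the 10 genes, called list genes (up to 4 others per list), genes sharing a summit and the 2 genes most like each. EXG1 falls outside this rule and was chosen after its values were seen. Promoter motifs and protein features had been planned and were not analysed here. No test was made. Summit precision is limited by an unknown depth. Replicates may be technical.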

Additional observations from a re-analysis of the deposited data

How the results depend on the processing

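With DTT, the 10 called genes were 8 with summits given to the nearest gene alone (without ECM33 and GAS5) and 8 with scores of at least 500 (without ECM33 and PIR1). At 6 h in BYTA the 4 called genes became 7 when either library sufficed, and 4 to 7 with 1 replicate alone. With scores of at least 500 they were 3 (without SED1). For the nearest-gene and score settings the share of all protein-coding genes called is not given, and nothing is read from these counts. The 6 list genes called at 6 h became 14 when either library sufficed and 6 to 14 with 1 replicate alone, while the 20 with DTT stayed between 15 and 24. The median rank of the 10 genes with DTT was at 50.8% of a table, 52.1% when ranked over genes, and 50.8% to 51.8% with 1 replicate alone. At 6 h in BYTA the median over the listed entries of both libraries was at 35.02%, and at 35.3% over genes. It was at 24.5% in replicate 1 alone (7 genes, 277 summits) and at 54.4% in replicate 2 alone (4 genes, 91 summits). These 2 medians thus cover different sets of genes. Summits within 100 bp between DTT and 6 h numbered 7 of 7, and 4 to 7 with 1 replicate alone, where 4 genes could be compared in replicate 2. The cause of these changes was not tested. Leaving aside values at 0 throughout, 21 stayed within limits (1.5 times for counts, 1 SD between replicates for ranks) and 7 moved. Some of the 21 could not move, as the 10 genes called with DTT stay called when a replicate is left out. At 6 h in BYTA the rank limit was 21.1 percentage points, taken from the 2 replicate medians themselves, so 24.5% and 54.4% counted as unmoved. The tally is therefore no measure of stability. No paired analysis was possible because the results come from no test.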
